A study of Mus musculus and Homo sapiens with 4 samples.

Results

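The transcripts described here are those of HEK cells, a human embryonic kidney line, whose 3' trailer held more ribosome profiling reads than their coding region. The trailer is the untranslated part of a messenger RNA after the stop codon. A transcript was taken where coding region and trailer were counted in both HEK libraries, the trailer held 100 or more reads summed over the libraries, and this sum was above that of the coding region. This gave 3498 transcripts, of 72802 with both parts and of 194871 listed. They made up 82.4% of the 4246 transcripts with 100 or more trailer reads. Another 744 transcripts with that many trailer reads had fewer of them than coding reads and serve as the comparison, and 4 had equal numbers and enter neither group.

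The HEK cells grew in medium with 10% serum. After digestion with RNase I and size exclusion chromatography, 1 library was made without further capture (input). The other was made from assembled ribosomes held on streptavidin through a tag on the large ribosomal subunit (bound). The labels do not say whether both came from the same culture, or whether the cells are a single clone. Each group has 1 library, so no test of capture exists and no p-value is given. A mouse embryonic stem cell pair of the same series was not used here. Reads counted for whole transcripts summed to 17446956 (input) and 30208713 (bound). The transcripts were deposited under Ensembl identifiers, and the name tables used here hold 0 of the 3498 identifiers. Gene names, gene lists, markers of the cell type and sequences are therefore not given, and transcripts are described by their counts and their rank in trailer reads.

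A translating ribosome reads the coding region and is released at the stop codon, so trailers usually hold few footprints. Annotations also list alternative transcripts that stop early, and in these the annotated trailer can run over exons that other transcripts of the gene use as coding sequence. Fragments shielded by protein complexes other than ribosomes can survive nuclease as well. Capture through a tagged ribosomal subunit serves to separate footprints that travel with the ribosome from such fragments.

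The excess of trailer reads was mostly large and was present in each library. Members were chosen by these summed trailer and coding reads, so the levels are a description. Summed trailer reads had a median of 266, with quartiles of 157 and 558 and a highest value of 53009. Summed coding reads had a median of 41 and quartiles of 14 and 106. In 192 transcripts (5.49%) the coding region had 0 reads in both libraries. Among the other 3306 the trailer held a median of 6.35 reads per coding read, with quartiles of 2.60 and 17.8. Trailer reads were above coding reads in both libraries in 3423 transcripts (97.9%), in the input alone in 23 and in the bound library alone in 52. The files give no lengths, so these are reads per part and not density.

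**Figure D1:**
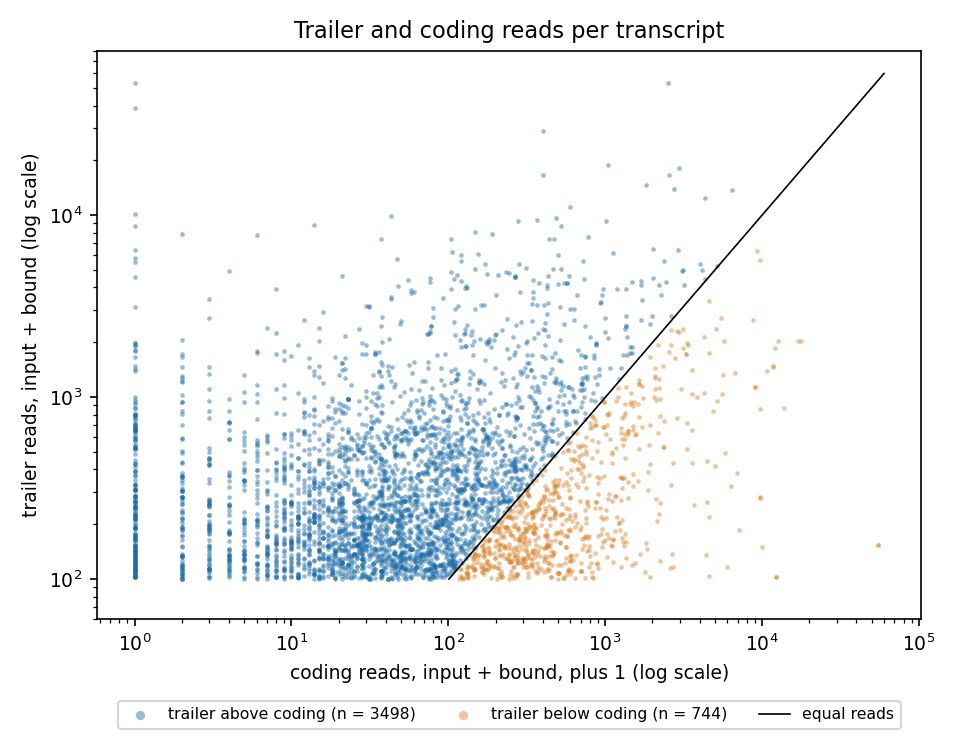
Trailer reads (vertical) against coding reads plus 1 (horizontal), both summed over input and bound on log scales, with 1 point per transcript and a line at equal reads. The 3498 blue points lie above the line, 192 of them in the column without a coding read, and the 744 orange points lie below it.

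At the edge of the rule the values ran on without a break. The members nearest to equality with the most reads had 322 trailer and 321 coding reads, 312 and 311, and 309 and 308. Just outside it lay transcripts with 267, 255 and 196 reads in each part. Within 10 reads of equality there were 34 members and 23 comparison transcripts. Exactly 100 trailer reads were found in 22 members, and 25 transcripts that met the other conditions had 99. In all, 4954 transcripts had more trailer than coding reads but under 100 trailer reads.

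The trailer took most of the reads of its transcript. Its share of whole-transcript reads in members had a median of 80.7% before capture and 82.1% after it. In comparison transcripts the medians were 30.4% and 30.5%. The direction of this difference follows from the rule that made the groups, so it is a description. A few transcripts were counted in the trailer alone, with all reads there in 56 members. Of all reads in trailers of transcripts with both parts, members held 78.9% before capture (822691 reads). The 95% exact binomial interval was 78.9 to 79.0. After capture they held 80.3% (1529257 reads, interval 80.3 to 80.4). These intervals and those below cover counting error only. The labels name no molecular identifiers, and isoforms repeat each other's reads.

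Leaders, the untranslated parts before the start codon, were counted in 2673 members. In 1119 of these (41.9%) the leader had 0 reads, 33 leaders (1.23%) had 100 or more, and 244 (9.13%) held more reads than the coding region. Of 546 comparison transcripts with a counted leader, these were 184 (33.7%), 33 (6.04%) and 3 (0.549%). Members were chosen by coding reads relative to trailer reads, so the last difference is a description. The rule also set the groups apart in coding reads, with a median of 41 in members and 475.5 in comparison transcripts. The other differences are therefore a description as well.

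Isoforms of a gene overlap, and part of the members repeat each other. Whole rows were repeated rarely: the 3498 members had 3474 different sets of counts over all parts and both libraries, so 24 rows repeat another. The trailer alone was repeated more often. There were 3056 different pairs of input and bound trailer reads, and 368 of these pairs occurred in more than 1 member, covering 810 members (23.2%) with at most 4 members per pair. Low counts can coincide without shared sequence. Among the 433 members with 1000 or more trailer reads, 424 pairs differed and 7 pairs were shared by 16 members (3.7%). In the comparison group 131 of 744 transcripts (17.6%) shared a trailer pair, and 9 of 55 (16.4%) with 1000 or more trailer reads. Rounded to 2 significant digits, the trailer counts of all members formed 1802 pairs. Members are therefore not independent of each other, and no test over them was made.

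Exact matches of a trailer with a whole feature elsewhere were few in abundant members and common at low reads. In the 433 members with 1000 or more trailer reads, 5 trailers had exactly the input and bound reads of some coding region, and 13 had those of a transcript listed without a coding region. In all 3498 members these numbers were 1685 (48.2%) and 1744 (49.9%), at read numbers where such matches also arise by coincidence. In the 744 comparison transcripts they were 409 (55.0%) and 440 (59.1%), so such matches are not particular to members.

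The trailers of most members were recovered on capture in the same proportion as coding regions. Ratios of bound over input are given as log2 values, scaled so that the median coding region with 100 or more reads has 0, with a prior of 0.5 scaled reads. Members' trailers had a median of 0.033 (95% interval from ranks 0.022 to 0.045, too narrow because isoforms overlap) and quartiles of -0.17 and 0.20. In 1920 members (54.9%) the value was above 0. Comparison trailers had a median of 0.017 (interval -0.018 to 0.069), with quartiles of -0.20 and 0.25. The intervals of both groups overlap. Scaling to total counts shifts every ratio up by 0.20, which leaves the gap between the groups in place. With a minimum of 30 reads the members' median was -0.0039.

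Most of the best-measured trailers lay close together. Over the 433 members with 1000 or more trailer reads the median log2 ratio was 0.10 and the scaled median absolute deviation 0.15. The 4592 coding regions with as many reads had a median of 0.074 and a deviation of 0.14. For members with 100 to under 300 reads the deviation was 0.34, against 0.33 for coding regions. The 55 comparison trailers with 1000 or more reads had a median of 0.24 and a deviation of 0.20. By this measure trailer ratios of members spread about as much as those of coding regions with similar reads. It gives little weight to a few far values, and 12 of the 433 lay at -3.47 or lower, as described below.

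**Figure D2:**
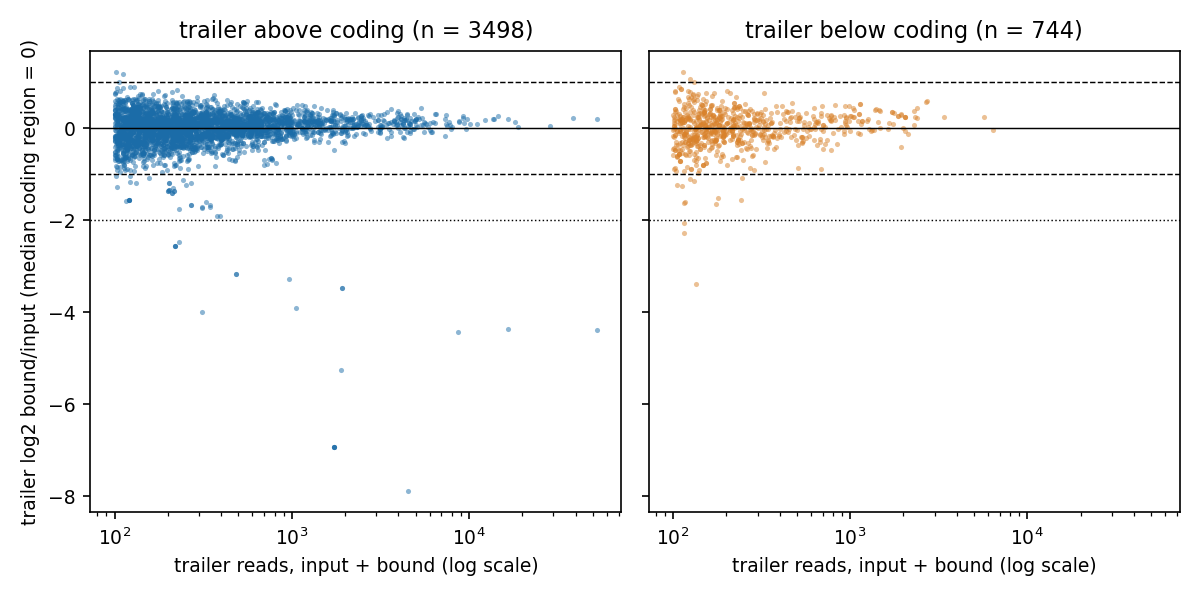
Log2 ratio of bound over input trailer reads against summed trailer reads on a log scale, for members (left) and comparison transcripts (right), with 1 point per transcript. Lines mark 0 (solid), 2-fold in either direction (dashed) and 4-fold lower (dotted). Members gather around 0 and a sparse group falls to -7.89, while the lowest comparison trailer is at -3.38.

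Trailer and coding region of the same transcript could be compared in 939 members with 100 or more reads in each. Their median difference in log2 ratio was 0.010 (interval from ranks -0.016 to 0.037), and 480 (51.1%) were above 0. The quartiles were -0.20 and 0.26. The trailer was at least 2-fold lower than its own coding region in 5 of them (0.532%) and at least 2-fold higher in 14 (1.49%). In the 744 comparison transcripts the median was -0.027 (interval -0.059 to 0.017), with 13 lower (1.75%) and 6 higher (0.806%). This difference does not depend on the scaling.

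The most abundant trailers show both behaviours. The first by trailer reads had 16145 input and 36864 bound reads, with 0 coding reads in either. Its ratio was 1.15-fold higher (95% exact counting interval 1.13 to 1.17). The second had 48306 and 4579 reads and was 21.0-fold lower (interval 20.3 to 21.6). The first trailer gained reads with the deeper bound library and the second fell to a small part of its input. The third had 11602 and 26996 reads, all reads of that transcript, and was 1.17-fold higher (interval 1.15 to 1.20). The fourth had 9423 and 19400 reads with 107 and 292 coding reads. The fifth had 6253 and 12672 trailer reads, with 306 and 739 in its coding region. Of the 10 most abundant trailers, 8 lay between 1.02-fold and 1.19-fold higher than the median coding region. The other two, the second and the eighth, were lower; the eighth had 15100 and 1461 reads.

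Coding reads were nearly missing in the members with the largest excess. This follows from ranking them by trailer reads per coding read, so it is a description. Of those with any coding read, the highest had 7915 trailer reads (2658 input, 5257 bound) for a single coding read. Its trailer ratio was 0.995 of the median coding region (interval 0.949 to 1.04). The next had 639 and 1408 trailer reads for 1 coding read, and a ratio of 1.11 (interval 1.01 to 1.22). A further member had 706 and 1017 trailer reads for 1 coding read and was 1.38-fold lower (interval 1.25 to 1.52). The fourth had 974 and 2470 trailer reads for 2 coding reads and was 1.28-fold higher (interval 1.18 to 1.38). These trailers thus stood on either side of the median coding region, within a 2-fold range.

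A small part of the trailers was strongly lower after capture. At least 2-fold lower were 55 of 3498 members (1.57%), against 13 of 744 comparison trailers (1.75%) and 228 of 26492 coding regions (0.861%). Over all 4246 trailers with 100 or more reads it was 1.6%, but members make up 82.4% of these. At this threshold and minimum members stand near the comparison trailers. At least 2-fold higher were 3 members (0.0858%), 3 comparison trailers (0.403%) and 14 coding regions (0.0528%). The 55 members formed 40 of the 3056 different trailer pairs (1.31%), and the 13 comparison trailers 13 of 674 (1.93%). The whole counting interval lay beyond a 2-fold loss in 37 of the 55 members and in 8 of the 13 comparison trailers. Where the rule was applied to the bound library alone, 18 of 2693 trailers (0.67%) were lower. With the input alone 44 of 1627 (2.70%) were lower. Each of these rules asks for 100 reads in 1 library and so selects on the ratio itself. How much of the change this makes was not tested. Comparison trailers shifted as well, to 2 of 496 (0.40%) with the bound library alone and 5 of 224 (2.23%) with the input alone.

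At larger losses 20 members were at least 4-fold lower (0.572%), against 3 comparison trailers (0.403%), 0.542% of all trailers and 32 coding regions (0.121%). At least 8-fold lower were 16 members (0.457%) and 1 comparison trailer (0.134%), with 0.4% over all trailers. At least 16-fold lower were 10 members (0.286%) and 0 comparison trailers, with 0.236% over all. Counted by different trailer pairs, members had 13 pairs at least 4-fold lower (0.425%) and comparison transcripts 3 of 674 (0.445%), so the order of the groups at 4-fold turned when repeats were counted once. At 8-fold and 16-fold members had 11 and 7 of their 3056 pairs, and comparison transcripts 1 and 0 of 674. These differences were not tested. No member was 4-fold higher.

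Among abundant members the loss was either large or not seen. Of the 433 members with 1000 or more trailer reads, 12 were at least 2-fold lower (2.77%), and each of the 12 was also at least 4-fold lower. Their log2 ratios ran from -7.89 to -3.47. The other 421 ran from -0.46 to 0.51, all within 1.5-fold of the median coding region, and no value fell between -3.47 and -0.46. The 12 formed 8 of 424 different pairs (1.89%). Of coding regions with 1000 or more reads 8 of 4592 (0.174%) were lower, and of 55 comparison trailers 0. With so few comparison trailers in this range the difference from that group was not tested. With 300 to under 1000 reads 11 of 1164 members (0.95%) were lower, 0 of 159 comparison trailers and 39 of 9428 coding regions (0.41%). With 100 to under 300 reads the order between the trailer groups was the other way, with 32 of 1901 members (1.68%), 13 of 530 comparison trailers (2.45%) and 181 of 12472 coding regions (1.45%).

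**Figure D3:**
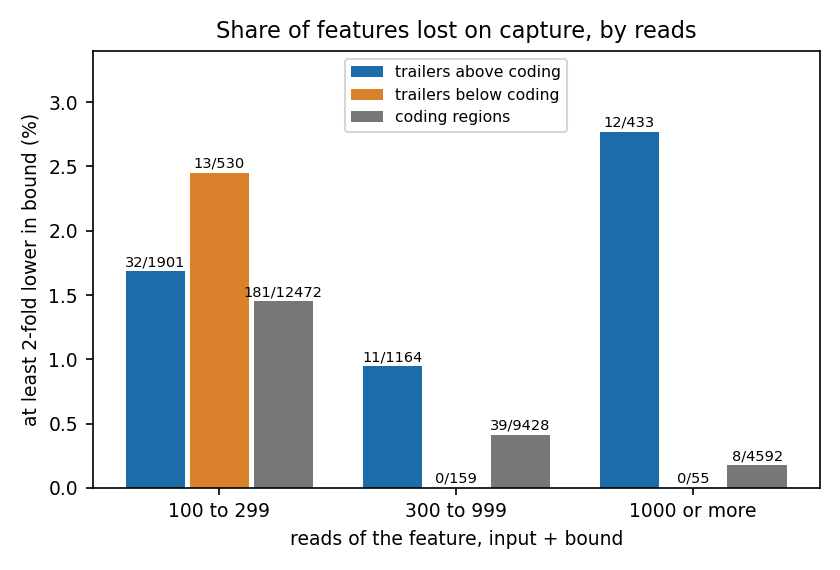
Percent of features at least 2-fold lower after capture, by summed reads, for members' trailers, comparison trailers and coding regions, with the number lower over the number compared above each bar. Members have 12 of 433 at 1000 or more reads, where comparison trailers have 0 of 55 and coding regions 8 of 4592.

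The lower trailers held a visible part of the input. Selecting trailers for a low ratio fixes the direction of this comparison, which is a description. Those at least 2-fold lower made up 11.6% of members' input trailer reads (95628 reads) and 0.75% of the bound ones (11453 reads). The second trailer by reads carried much of this. Without it the shares were 6.11% and 0.45%, and without the eighth as well they were 4.24% and 0.36%; these were left out after the values were seen. The 13 lower comparison trailers held 1.30% and 0.41% of the reads of their group.

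The lowest ratio belonged to ENST00000604646.1, whose trailer had 4510 input and 37 bound reads. It was 242-fold lower (interval 176 to 345). Its coding region had 0 reads in both libraries and its leader had 545 and 153, which is 7.08-fold lower (interval 5.91 to 8.53). The trailer thus fell further than the leader of the same transcript.

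The next was ENST00000396229.2, with 1697 and 27 trailer reads, 125-fold lower (interval 85.6 to 190.2). Its trailer counts recur in 4 members, so this loss was counted 4 times. Its coding region had only 16 and 17 reads, 1.87-fold lower with an interval of 0.88 to 3.94 that holds no change. Of the other three members, 2 had coding regions past the 2-fold threshold at similarly low counts, with 15 and 14 reads (ratio -1.05 on the log2 scale) and 14 and 13 reads (-1.06).

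Next below these in loss, with 1805 input and 93 bound reads, stood a trailer that was 38.6-fold lower (interval 31.3 to 48.1). It had 0 coding reads, and its leader with 589 and 99 reads was 11.8-fold lower. Another, at rank 22 by trailer reads, had 7961 and 736 reads and was 21.5-fold lower (interval 19.9 to 23.2). It too had 0 coding reads, and its leader with 495 and 161 reads was 6.11-fold lower. A trailer with 797 and 164 reads repeated this form: it was 9.66-fold lower, with 0 coding reads and a leader of 581 and 107 reads that was 10.8-fold lower. Together with ENST00000604646.1 these make 4 members with a lower trailer, no coding read and a leader of 495 to 589 input reads.

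The second and eighth trailers by reads belong to transcripts with nearly equal coding counts, 2136 and 398 reads in the former and 2142 and 398 in the latter. Whether they share sequence was not tested, so they are not counted on as separate cases. In the former the trailer was 21.0-fold lower, the coding region 10.7-fold lower (interval 9.58 to 11.9), and the leader, with 54769 and 17862 reads, 6.10-fold lower (interval 5.99 to 6.20). In the latter the trailer was 20.5-fold lower (interval 19.5 to 21.7), the coding region 10.7-fold lower and the leader 3.83-fold lower (interval 3.70 to 3.97). All parts of both transcripts were lower, the trailer most and the leader least.

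Other lower trailers stood beside a coding region that was not lower. A trailer with 279 and 34 reads was 16.3-fold lower (interval 11.4 to 24.0), while its coding region had 43 and 105 reads, 1.23 times the median coding region. A trailer with 930 and 122 reads was 15.2-fold lower (interval 12.5 to 18.5), while its coding region had 6 and 28 reads. A trailer with 397 and 87 reads, found in 2 members, was 9.07-fold lower (interval 7.18 to 11.6), with 17 and 29 coding reads. A trailer with 165 and 55 reads, found in 3 members, was 5.96-fold lower. Coding reads were 13 and 25 in 2 of these members and 8 and 13 in the other. The coding regions of these 4 were not 2-fold lower, at low counts.

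A trailer with 1629 and 292 reads was 11.1-fold lower (interval 9.79 to 12.6) and occurred in 2 members. The same 1629 and 292 reads were listed for 1 transcript without a coding region. The 13th pair, with 170 and 60 trailer reads, was 5.63-fold lower (interval 4.17 to 7.69).

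**Figure D4:**
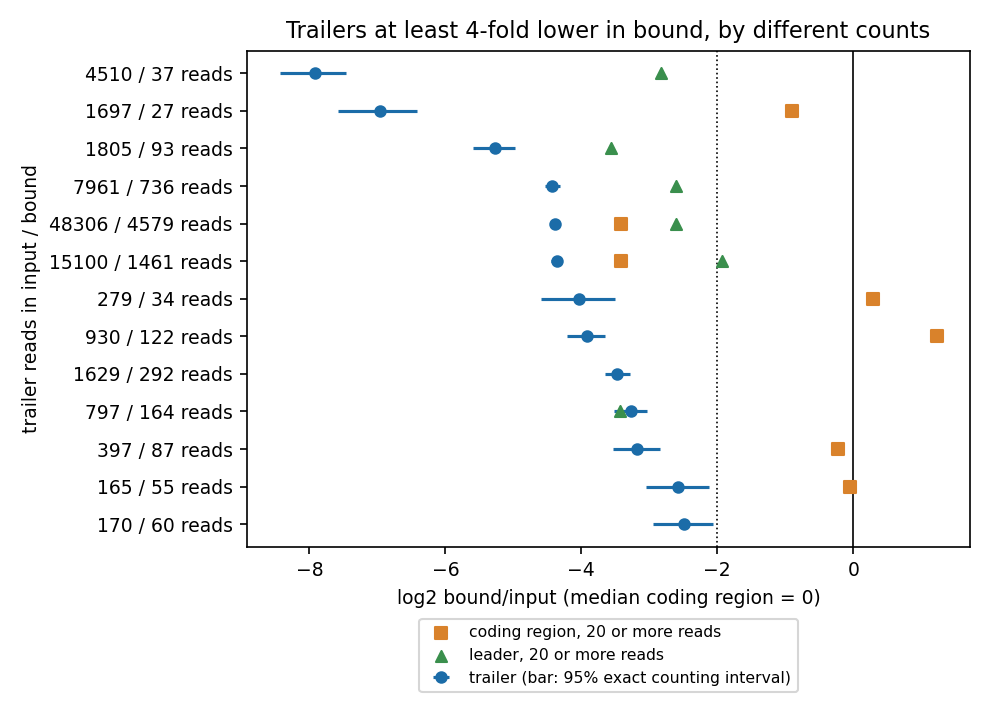
Log2 ratio of bound over input for the 13 different pairs of trailer reads at least 4-fold lower, each labelled with its input and bound trailer reads. Blue points are trailers with 95% exact counting intervals, orange squares the coding region and green triangles the leader of the same transcript where that part had 20 or more reads. Leaders lie well left of 0 in all 6 transcripts that show one, and coding regions between 1.87-fold lower and 2.35-fold higher, except the pair at 10.7-fold lower.

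Lower leaders were found beside lower trailers. Of the 33 members with 100 or more leader reads, 6 leaders (18.2%) were at least 2-fold lower, with log2 ratios from -3.55 to -1.94. The share over all leaders with as many reads was not determined, so whether 18.2% is particular to members was not tested. All 6 belonged to members whose trailer was at least 4-fold lower. They include the second and eighth trailers by reads, which are not counted on as separate cases. In the other 27 members with such leaders the trailer was not lower, and 0 leaders were 2-fold lower (median -0.25, lowest -0.98). The 33 comparison transcripts with as many leader reads had 0 lower leaders and a median of -0.20, but none of them was a transcript with a lower trailer. With a minimum of 20 leader reads, 7 of 8 lower members and 2 of 4 lower comparison transcripts had a leader at least 2-fold lower; the difference was not tested. Coding regions were lower in part of the transcripts, and whether leaders and coding regions differ in this was not tested. With 100 or more coding reads, 2 of 7 members with a lower trailer had a lower coding region, and 2 of 3 of those at least 4-fold lower in the trailer. In both counts the 2 are again the second and eighth trailers by reads. With 20 or more coding reads, 4 of 24 had a coding region at least 2-fold lower. Among those with a trailer at least 4-fold lower it was 4 of 13. These 4 are the same 2 members and 2 others that share their trailer counts with each other. In all 13 lower comparison transcripts the coding region was not 2-fold lower, at log2 ratios from -0.73 to 0.29.

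The size of the excess did not order the losses in 1 direction. Lower trailers numbered 8 of 569 members with up to 2 trailer reads per coding read and 2 of 841 with 2 to 5. They were 15 of 1139 with 5 to 20, 23 of 577 with 20 to 100, 1 of 180 above 100, and 6 of 192 without a coding read. Isoforms that repeat a trailer add to several of these numbers. The median log2 ratio stayed between 0.018 and 0.055 in all 6 classes.

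The trailers that were higher after capture had few reads. ENST00000575284.1 had 18 input and 84 bound trailer reads, 2.35-fold higher (interval 1.40 to 4.15), and 27 and 62 coding reads. ENST00000513649.1 had 20 and 91 trailer reads, 2.29-fold higher (interval 1.40 to 3.92), and 40 and 62 coding reads. The third had 21 and 85 reads and was 2.04-fold higher (interval 1.25 to 3.46). All of the 3 intervals reach below 2-fold, and at 300 or more trailer reads no member was 2-fold higher.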

How the data were processed

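The deposited values are raw read counts made by the authors, 1 file per library, and per the file headers they cover each transcript as a whole and its leader, coding region and trailer. The submitters' processing notes name TopHat2 2.0.7, Bowtie2 2.0.6 and CASAVA 1.8, with no role. The counting tool, the annotation and the handling of multiply matching reads were not given in the sources used here. Such reads could be counted for several transcripts.

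The members and the lists were chosen with earlier results of these data known. A part was used where neither library lists it as missing. Bound counts were 1.99 times input counts at the median coding region, and this factor scaled the ratios. A prior of 0.5 scaled reads was added to log2 ratios; folds of single trailers use the scaled counts without it, with exact (Clopper-Pearson) 95% intervals. Folds of coding regions and leaders are given from 20 reads. Transcripts named or described are those with the most trailer reads, the lowest and highest ratios and the largest excess, 1 per set of trailer counts; at most 2 identifiers are printed in each direction, because no gene names could be paired. Gene lists and cell markers planned for named genes were not run. The ratio code was tested on simulated data. Python 3.11.15, scipy 1.17.1 and, for TMM scaling, edgeR 4.0.16 were used. Alternatives were other scalings, priors, minimums, thresholds and rules.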

Additional observations from a re-analysis of the deposited data

How the results depend on the processing

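No paired analysis was possible because input and bound are single libraries. The number of members, 3498, was 1627 when the rule was applied to the input alone, 5705 with a minimum of 30 trailer reads and 981 with 500. Their percentage of trailers past the minimum was 87.8 with the input alone, 84.3 with the bound library alone, 72.7 with 30 reads, 87.9 with 500 reads and 69.0 when more than 2 trailer reads per coding read were asked for. The median log2 ratio was 0.23 with total counts, -0.0039 with 30 reads, which reverses its sign, 0.083 with 500 reads and 0.059 with the rule on the bound library. The gap to comparison transcripts, 0.016, was -0.071 with 500 reads and -0.038 with the rule on the input, so neither its sign nor its size is settled. Members at least 2-fold lower, 55, became 191 with 30 reads, 13 with 500 reads, 161 at 1.5-fold, 20 at 4-fold and 18 with the rule on the bound library. Members were lower less often than comparison trailers with 30 reads (3.35% against 8.16%) and at 1.5-fold (4.60% against 7.39%). They were lower more often with 500 reads (1.33% against 0%) and at 4-fold (0.57% against 0.40%). The same order held with the rule on the input (2.70% against 2.23%) and on the bound library (0.67% against 0.40%). A rule on 1 library also selects on the ratio itself, so these orders are a description. In the other settings members stood slightly below. These differences were not tested. Members at least 2-fold higher, 3, became 10 with total counts, 63 with 30 reads, 65 at 1.5-fold, 1 with more than 2 trailer reads per coding read, and 0 with 500 reads, at 4-fold and with the rule on either library alone. The trailer difference from its own coding region was 0.044 with coding regions of 30 or more reads. Members' percentage of trailer reads was 78.6 (input) and 80.0 (bound) leaving out the most abundant member, and 79.2 and 80.5 with identical rows counted once. Different sets of counts, 3474 over all parts, were 3056 by trailer counts alone and 1802 by trailer counts rounded to 2 significant digits. TMM scaling and priors of 0 and 5 changed no count by over 1.5 times. The causes were not tested, except that higher minimums and single-library rules leave fewer transcripts.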

Other observations

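Lower trailers gathered in transcripts that repeat a coding count, a pattern chosen after its values were seen. A coding region with 8 input and 2 bound reads was listed for 30 transcripts and 13 members. In 10 of these 13 the trailer was at least 2-fold lower, against 1.57% of all members. These trailers had 52 to 1629 input reads and 50 to 292 bound reads in 7 different pairs. The coding pair chosen here is itself lower, at a log2 ratio of -2.62. Log2 ratios of the 13 trailers ran from -3.47 to 0.026 with a median of -1.36. A coding region with 3 and 1 reads was listed for 201 transcripts, and such low counts can coincide without shared sequence. It occurred in 7 members, and 5 of their trailers were lower, with 121 to 216 input reads and 90 to 133 bound reads. The coding pair of 43 and 45 reads was listed for 5 transcripts and occurred in 3 members, all with 72 and 48 trailer reads. These sets hold 18 of the 55 lower members, and whether the transcripts of a set are isoforms of 1 gene was not tested.

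In members with all 3 parts, the share of whole-transcript reads in none of the parts was 3.94% before capture and 3.82% after it. In comparison transcripts these were 6.21% and 5.46%.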
